A study of Mus musculus with 7 samples.

Results

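The genes described here are 51 components of transforming growth factor-beta (TGF-beta) and bone morphogenetic protein (BMP) signalling, chosen by name from ligands through receptors and SMAD proteins to antagonists. All 51 were present on the arrays, among 19505 named genes, and each was represented by 1 feature. Affymetrix arrays, 1 per animal, measured RNA of the nucleus pulposus, the soft centre of the spinal disc, in 4 wild-type (WT) and 3 MCT4 knockout (MCT4KO) mice. MCT4KO mice lack the lactate exporter MCT4, encoded by Slc16a3, in every tissue. The WT animals were 13 months old and the MCT4KO animals 14 months old, so age and genotype cannot be told apart. Per the labels, both genotypes came from MCT4+/- parents after 10 generations of backcrossing to C57BL/6N, and the tissue of an animal's lumbar and caudal discs was combined into 1 sample. The sample labels give C57BL/6 as the strain of both groups, while the design text sets a C57Bl/6N background for the knockouts against C57Bl/6 for WT. The labels name no treatment for either group.

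TGF-beta, BMP, growth differentiation factor (GDF) and activin ligands are secreted dimers that bring together type I and type II receptor kinases at the cell surface. TGF-beta and activin receptors phosphorylate mainly SMAD2 and SMAD3, BMP receptors mainly SMAD1, SMAD5 and SMAD9, and both sets join SMAD4 to act in the nucleus. Most of the latent TGF-beta binding proteins hold the inactive, latent ligand in the matrix. Antagonists such as gremlin and chordin bind BMPs, follistatins bind activins, and the inhibitory SMADs close a feedback loop. In the disc these pathways are known for promoting proteoglycan and collagen synthesis and for shaping notochord-derived cells.

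Expression values are on the authors' log2 scale, so that a difference of 1 is a 2-fold change. The 5222 negative control features gave a median of 5.99, and array medians over the named genes ran from 6.46 to 6.51. Slc16a3 had a value of 13.35 to 13.61 in WT and of 4.47 to 5.02 in MCT4KO, below the control median of each array, lower by at least 179.9-fold (adjusted p = 6.7e-09 by limma). Its two-sided exact permutation p was 0.0286, as low as 35 splits of the animals can give. Of 12 measured nucleus pulposus markers, 10 were above background, and Car12 and Foxa1 were at background in both groups. As a mean these 12 markers gave 12.36 to 12.64 in WT and 12.49 to 12.56 in MCT4KO. The mean of 14 neutrophil and marrow markers was 7.28, 9.17, 5.71 and 5.92 in WT 1 to 4 and 4.99 to 5.53 in MCT4KO, with 8 of the 14 at background in MCT4KO and 1 in both groups, so WT 1 and WT 2 stood apart in these markers. In bulk tissue, fewer cells of a type and less RNA per cell cannot be told apart. Of the other marker lists, 9 of 10 endothelial, 6 of 9 macrophage and 6 of 7 osteoblast markers were at background in both groups, as were 4 of 10 end plate, 3 of 10 skeletal muscle and 2 of 7 annulus fibrosus markers. Of all marker genes 1 was called: Snorc, encoding a chondrocyte proteoglycan, read 11.39 to 12.25 in WT and 9.96 to 10.68 in MCT4KO, and fell by 1.53 (adjusted p = 0.026). Ucma, a cartilage matrix gene, and Ibsp, encoding bone sialoprotein, were lower in every MCT4KO animal than in any WT animal, with changes of -1.01 (adjusted p = 0.21) and -1.94 (adjusted p = 0.14). Over all genes, 6.37% had groups apart with MCT4KO lower and 5.66% with MCT4KO higher. Markers of other lists went the other way, with Thbs4, Ckm and Cd24a higher in every MCT4KO animal than in any WT animal. The median change was -0.09 over the end plate list and -0.15 over the osteoblast list.

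No gene of the 51 passed the test for a difference between MCT4KO and WT. The smallest adjusted p was 0.20, for Ltbp1, against 115 of 19505 genes called at an adjusted p under 0.05, or 0.59%. At an unadjusted p under 0.05 there were 6 of the 51 genes, 11.8%, which is close to the 12.7% of all genes. Higher in MCT4KO were 5 of them, Ltbp4, Smad6, Bmpr1a, Fstl3 and Grem1, beside 5.76% of all genes, and 1 was lower, Ltbp1, beside 6.9%. Groups that did not overlap were seen in 3 genes, 5.88%, against 12.0% of all genes, and in these 3, Tgfb3, Ltbp4 and Smad6, every MCT4KO animal was above every WT animal. Over all genes, 5.66% had groups that were apart with MCT4KO higher and 6.37% with MCT4KO lower. The median log2 change over the 51 genes was 0.04, beside 0.02 over all genes, with 28 above 0 and 23 below, beside 53.0% above 0 over all genes. These figures include genes at background in both groups. Among the 41 genes above background in either group, 14.6% had an unadjusted p under 0.05 and 7.32% had groups apart. The median change of those 41 was 0.09, with 23 above 0 and 18 below. The same shares over all genes above background are not given here. The median over the 51 genes was -0.01 without WT 1 and WT 2 or without MCT4KO 1. It was also -0.01 with values below the control median raised to it. That value is only the change that each gene at background in both groups then takes, so it says nothing about the genes above background.

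**Figure D1:**
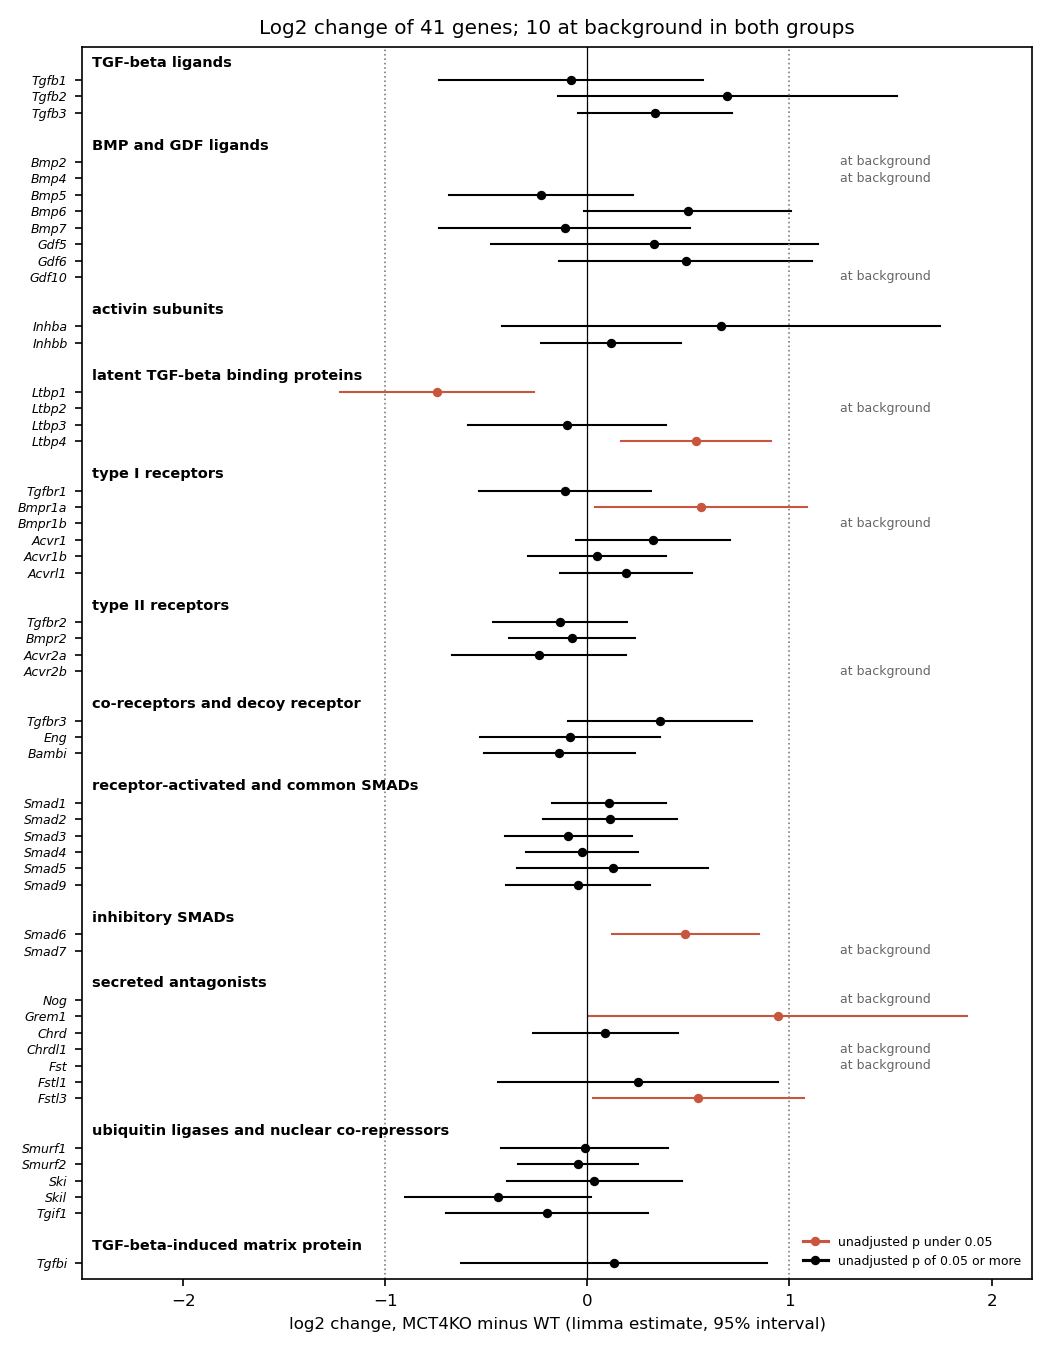
The log2 change, MCT4KO minus WT, is plotted for the 41 genes above background in either group, each with its 95% interval from limma, by role, with 4 WT and 3 MCT4KO animals. Estimates run from -0.74 for Ltbp1 to 0.94 for Grem1, red marks the 6 genes with an unadjusted p under 0.05, and the 10 genes at background in both groups are listed with no estimate.

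The intervals show what sizes of change the 7 arrays leave possible. For 41 of the 51 genes the 95% interval lay within 1 log2 unit, or 2-fold, of 0, and 91.2% of all genes had such an interval. Both counts include genes at background, and among the 41 genes above background in either group there were 32. The 9 wider intervals of that group were those of Tgfb2, Bmp6, Gdf5, Gdf6, Inhba, Ltbp1, Bmpr1a, Grem1 and Fstl3. The standard deviation of a gene between animals had a median of 0.223 in WT and 0.265 in MCT4KO over the 51 genes, beside 0.196 and 0.209 over all genes. At background in every array were 10 genes, or 19.6% against 39.1% of all genes: Bmp2, Bmp4, Gdf10, Ltbp2, Bmpr1b, Acvr2b, Smad7, Nog, Chrdl1 and Fst. No change is given for any of these 10, since the arrays give only an upper limit, near the control median, and their transcripts may be present below it.

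**Figure D2:**
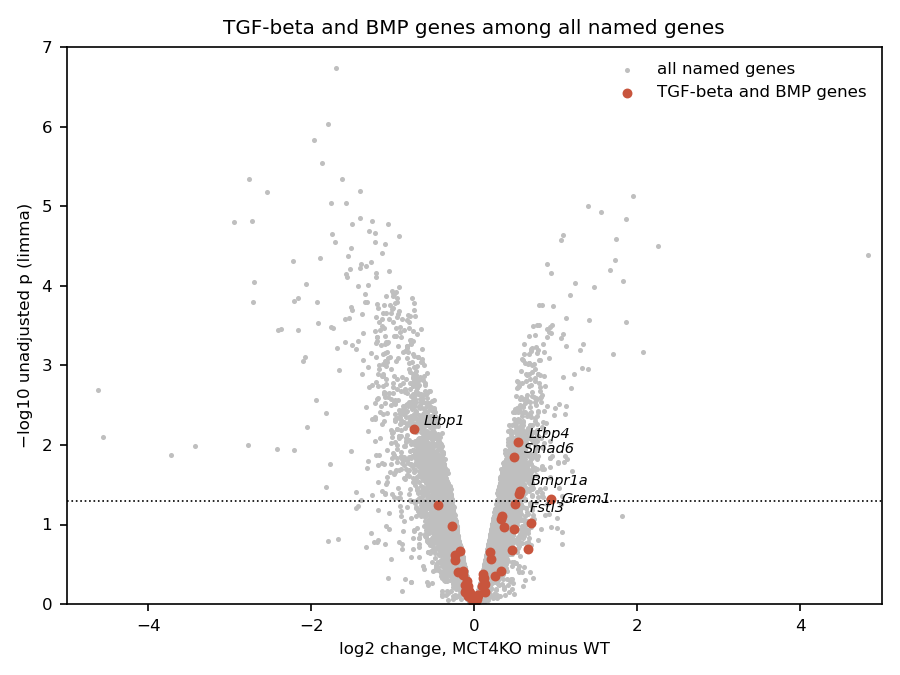
Each of 19505 named genes is plotted by its log2 change (MCT4KO minus WT) and the −log10 of its unadjusted limma p, with the 51 TGF-beta and BMP genes in red and a dotted line at an unadjusted p of 0.05. The 6 named genes lie above that line within the cloud of all genes, Grem1 nearest to the line and Ltbp1 farthest, and Slc16a3 lies outside the axes.

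The TGF-beta ligands were all well above background. Tgfb2, given in full after its values were seen, encodes the TGF-beta isoform known for its role in notochord and axial skeleton development. It had log2 values of 13.13, 13.29, 14.38 and 14.82 in WT 1 to 4 and of 14.67, 14.41 and 14.71 in MCT4KO 1 to 3. WT 1 and WT 2 lay more than 1 unit below every other animal, whereas WT 3 and WT 4 were level with the MCT4KO animals. The log2 change of 0.69 ± 0.374 (SE; adjusted p = 0.47) became -0.0023 without WT 1 and WT 2. Neutrophil and marrow markers were also highest in this pair, and their part was not tested. Tgfb3, the isoform associated with chondrogenesis and palate closure, had 11.08, 10.51, 11.15 and 10.97 in WT and 11.25, 11.32 and 11.21 in MCT4KO. The groups did not overlap, but the nearest animals were only hundredths of a unit apart, and the change of 0.33 ± 0.170 had an adjusted p of 0.45. Without WT 2, the lowest animal, it was 0.19, and without WT 1 and WT 2 it was 0.20. Tgfb1, the isoform most studied in fibrosis and immunity, ranged from 9.20 to 10.34 in WT and from 9.30 to 10.30 in MCT4KO, an almost complete overlap (change -0.08 ± 0.291, adjusted p = 0.93).

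Of 8 BMP and GDF ligands, none had an unadjusted p under 0.05. Bmp6, which encodes an osteogenic BMP also known in iron regulation, came nearest. Its values were 8.08, 7.89, 8.48 and 8.88 in WT and 8.93, 8.62 and 8.94 in MCT4KO. The groups overlapped through WT 4 alone, with means of 8.33 ± 0.441 (SD, n = 4) in WT and 8.83 ± 0.177 (SD, n = 3) in MCT4KO, a change of 0.50 ± 0.229 with adjusted p = 0.41, or 0.15 without WT 1 and WT 2. Bmp5, a BMP of skeletal and cartilage patterning, read 12.92 to 13.12 in WT and 12.85, 13.20 and 12.27 in MCT4KO, so the knockout animals spread on both sides of a tight WT group. Bmp7, an osteogenic BMP that has been studied as an anabolic factor in the disc, read 9.27 to 9.95 in WT and 8.86 to 9.97 in MCT4KO. Of the joint-forming factors, Gdf5 lay close to the control median, and Gdf6 lay below it in every animal but MCT4KO 1. Gdf6 thus counts among the genes above background through that array alone. Gdf5 had 6.06 to 6.69 in WT and 7.65, 6.29 and 5.90 in MCT4KO, and Gdf6, at background in every WT animal, reached 6.07 in MCT4KO 1 but 4.76 and 5.23 in MCT4KO 2 and 3. Both genes were therefore highest in MCT4KO 1.

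Neither activin beta subunit had an unadjusted p under 0.05. Inhba, encoding the subunit of activin A, had 6.29, 6.47, 6.92 and 7.56 in WT and 8.80, 6.64 and 6.97 in MCT4KO. Only MCT4KO 1 exceeded the WT range, and the change of 0.66 ± 0.484 (adjusted p = 0.60) became -0.003 without it. Inhbb, encoding the subunit of activin B, lay between 7.14 and 7.61 in all 7 animals. The change of Inhbb was 0.12 ± 0.155 (adjusted p = 0.78).

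Latent TGF-beta binding proteins held the smallest p-values on either side of 0. Ltbp1, the main matrix anchor of latent TGF-beta1, had log2 values of 11.91, 11.46, 11.77 and 11.90 in WT and 10.93, 11.51 and 10.61 in MCT4KO. MCT4KO 1 and 3 lay below every WT animal, while MCT4KO 2 lay within the WT range. The mean was 11.76 ± 0.209 (SD, n = 4) in WT and 11.02 ± 0.454 (SD, n = 3) in MCT4KO, a change of -0.74 ± 0.214 (SE; 95% interval -1.22 to -0.26; unadjusted p = 0.0063, adjusted p = 0.20). Without MCT4KO 2 the change was -0.99 (adjusted p = 0.078), and without MCT4KO 3 it was -0.54 (adjusted p = 0.35). In MCT4KO 1 to 3 the cartilage marker Ucma read 10.36, 10.81 and 9.51 and the bone marker Ibsp 8.11, 9.65 and 7.43, the same order of animals as for Ltbp1. Other cartilage markers ran in other orders: Snorc read 9.96, 10.34 and 10.68 and Cytl1 15.84, 14.09 and 13.41. Col10a1 and Cnmd also fell from MCT4KO 1 to MCT4KO 3, while Col9a1, near the control median, shared the Ltbp1 order. Ibsp was the only osteoblast marker above background. WT animals read 10.88 to 11.61 for Ucma and 9.75 to 10.95 for Ibsp, and the part of these markers in the Ltbp1 values was not tested.

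Ltbp4, which binds latent TGF-beta1 and is needed for elastic fibre assembly, had 7.90, 8.12, 7.99 and 7.74 in WT and 8.70, 8.57 and 8.16 in MCT4KO. Every knockout animal was above every WT animal, MCT4KO 3 narrowly so. The change was 0.54 ± 0.166 (95% interval 0.17 to 0.91; unadjusted p = 0.0092, adjusted p = 0.23), a fold of 1.45. Ltbp3, which helps to secrete and store latent TGF-beta in bone and cartilage, read 9.22 to 9.51 in WT and 9.79, 9.35 and 8.77 in MCT4KO (change -0.10 ± 0.219, adjusted p = 0.88). Ltbp2, a microfibril protein that does not bind latent TGF-beta, was at background throughout. The estimates for Ltbp1 and Ltbp4 thus had opposite signs, in the same sign under each alternative run, but the difference between these genes was not tested.

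The promoters of Ltbp1 and Ltbp4, picked after their values were seen, are shown because these genes had the smallest p-values and estimates of opposite sign. Each is the first start site listed by RefSeq on GRCm38.p6, of 2 for Ltbp1 (plus strand, chr17:75005279-75005558) and 3 for Ltbp4 (minus strand, chr7:27337583-27337862). The windows run from 250 bases before to 30 bases after the start, 5′ to 3′, with capitals for matches to the SMAD box CAGAC or its reverse GTCTG.
Ltbp1: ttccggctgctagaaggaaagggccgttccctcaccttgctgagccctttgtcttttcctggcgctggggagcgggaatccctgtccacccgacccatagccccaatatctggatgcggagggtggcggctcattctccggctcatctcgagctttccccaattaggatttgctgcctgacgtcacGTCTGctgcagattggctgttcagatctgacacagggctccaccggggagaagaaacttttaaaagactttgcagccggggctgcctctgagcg
Ltbp4: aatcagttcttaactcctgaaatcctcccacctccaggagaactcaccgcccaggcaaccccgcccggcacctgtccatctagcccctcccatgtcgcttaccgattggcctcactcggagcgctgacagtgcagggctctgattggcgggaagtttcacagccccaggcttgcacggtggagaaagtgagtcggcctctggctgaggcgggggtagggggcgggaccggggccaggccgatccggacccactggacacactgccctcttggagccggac
The Ltbp1 window held 1 match, at position -64 from the start, and the Ltbp4 window held none. The other Ltbp1 window held GTCTG at 2 positions, -148 and -97. The other Ltbp4 windows overlap and held the same single GGCGCC element, at -184 from 1 start and -169 from the other. A window of this length held CAGAC or GTCTG in 46.8% of 32851 RefSeq promoters. Of the 51 genes, 36 had a listed promoter, with 48 promoters between them. The SMAD box was in 25 of the 48, from 21 of the 36 genes. Windows of 1 gene can overlap, so a site can count more than once. The GC-rich SMAD element GGCGCC, a palindrome, was in 10.9% of all windows and in 15 of the 48, from 13 of the 36 genes. A match here is a description of letters and no evidence of binding.

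Among type I receptor kinases, Bmpr1a had the smallest p. It encodes ALK3, the main BMP type I receptor of cartilage, and had values of 11.06, 11.29, 11.66 and 11.49 in WT and 12.01, 11.41 and 12.40 in MCT4KO. MCT4KO 1 and 3 were above every WT animal and MCT4KO 2 lay between WT 2 and WT 4. The change was 0.56 ± 0.235 (95% interval 0.04 to 1.09; unadjusted p = 0.038, adjusted p = 0.36), but 0.36 without WT 1 and WT 2, 0.33 without MCT4KO 3 and 0.83 without MCT4KO 2. Acvr1, encoding the BMP type I receptor ALK2, read 6.80 to 7.39 in WT and 7.31 to 7.59 in MCT4KO (change 0.33 ± 0.170, adjusted p = 0.46). Tgfbr1, encoding the TGF-beta type I receptor ALK5, had an estimate near 0 (-0.11 ± 0.190, adjusted p = 0.84), as had Acvr1b, encoding the activin type I receptor ALK4 (0.05 ± 0.152, adjusted p = 0.92). Acvrl1, encoding the mainly endothelial receptor ALK1, was just above background in all 7 animals, at 6.21 to 6.59 in WT and 6.5 to 6.68 in MCT4KO. Bmpr1b, encoding ALK6, was at background.

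The 3 type II receptors above background had estimates from -0.24 to -0.08, none with an unadjusted p under 0.05, and Acvr2b was at background. Acvr2a, a receptor shared by activins and BMPs, had 14.83, 14.28, 14.25 and 14.28 in WT and 13.87, 14.26 and 14.39 in MCT4KO. WT 1 stood above the 6 other animals, MCT4KO 1 below them, and the change was -0.24 ± 0.191 (adjusted p = 0.63). Tgfbr2, the TGF-beta type II receptor, read 12.33 to 12.56 in WT and 12.03 to 12.49 in MCT4KO. Bmpr2, the BMP type II receptor, read 13.23 to 13.39 and 13.08 to 13.47. Their 95% intervals, -0.47 to 0.20 for Tgfbr2 and -0.39 to 0.24 for Bmpr2, lay well within 1 log2 unit of 0.

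The co-receptor Tgfbr3, or betaglycan, presents TGF-beta2 to the signalling receptors and binds inhibin. It had 13.63, 14.14, 14.28 and 14.30 in WT and 14.66, 14.11 and 14.56 in MCT4KO, with MCT4KO 2 just below WT 2 (change 0.36 ± 0.203, adjusted p = 0.49). The change was 0.21 without WT 1 and 0.16 without WT 1 and WT 2. Eng, the endothelial co-receptor endoglin, straddled the control median and exceeded it in 3 of 7 animals. The decoy receptor gene Bambi read 6.51 to 6.87 in WT and 6.20 to 6.75 in MCT4KO. Beside Eng and Acvrl1, the mean of the endothelial markers was 4.76 to 4.95 in WT and 4.82 to 5.08 in MCT4KO, and Pecam1 and Cdh5 were at background.

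**Figure D3:**
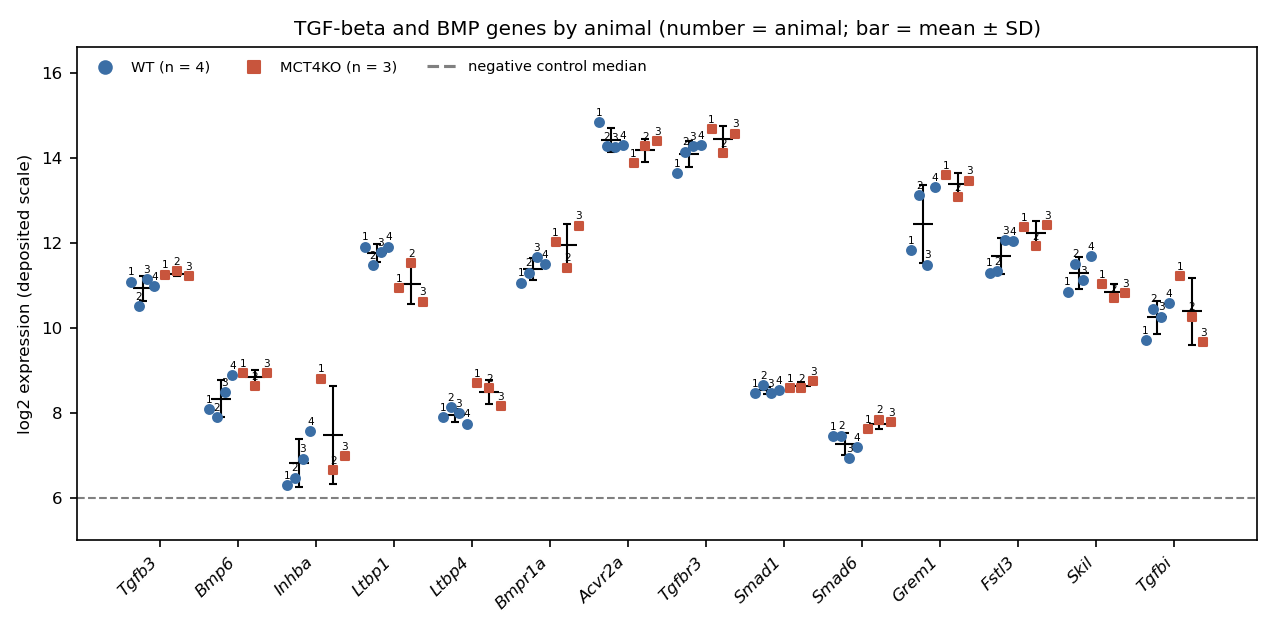
Log2 expression on the authors' scale is plotted for 14 TGF-beta and BMP genes in each of 4 WT animals (circles) and 3 MCT4KO animals (squares), numbered by animal, with the group mean ± SD and the negative control median as a dashed line. The groups are apart in Tgfb3, Ltbp4 and Smad6 and overlap in the 11 other genes, and the heights of different genes are not to be set against each other.

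Receptor-activated SMADs and SMAD4 had estimates close to 0. The 6 genes had estimates from -0.09 to 0.13, all with 95% intervals within 1 log2 unit of 0. Smad1, a BMP effector, had the smallest p of them, with 8.46, 8.64, 8.45 and 8.53 in WT and 8.57, 8.57 and 8.74 in MCT4KO (change 0.11 ± 0.125, adjusted p = 0.76). The other BMP effectors, Smad5 and Smad9, had changes of 0.13 ± 0.210 and -0.05 ± 0.159. The TGF-beta effectors Smad2 and Smad3 had 0.11 ± 0.148 and -0.09 ± 0.140, and Smad4, the common partner, had -0.03 ± 0.124. Smad4 read 12.62 to 12.81 in WT and 12.62 to 12.79 in MCT4KO.

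Smad6, the inhibitory SMAD that restrains mainly BMP receptors, had values of 7.45, 7.46, 6.93 and 7.18 in WT and 7.61, 7.83 and 7.78 in MCT4KO. Every MCT4KO animal was above every WT animal. The mean was 7.26 ± 0.252 (SD, n = 4) in WT and 7.74 ± 0.117 (SD, n = 3) in MCT4KO, a change of 0.49 ± 0.162 (95% interval 0.12 to 0.85; unadjusted p = 0.014, adjusted p = 0.27), or a fold of 1.4. It was 0.68 (adjusted p = 0.25) without WT 1 and WT 2, the pair with the highest Smad6 among WT animals. Smad7, the inhibitory SMAD of both branches, was at background in all 7 animals, so no change is given for it.

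Smad6 is known as a direct transcriptional target of BMP signalling, and its promoter, like those above, was picked with its expression values known. This promoter is shown from the single start site that RefSeq lists on GRCm38.p6 (minus strand, chr9:64022030-64022309). The window has the same extent as above, and capitals mark the palindromic SMAD element GTCTAGAC, which overlaps neither other motif.
Smad6: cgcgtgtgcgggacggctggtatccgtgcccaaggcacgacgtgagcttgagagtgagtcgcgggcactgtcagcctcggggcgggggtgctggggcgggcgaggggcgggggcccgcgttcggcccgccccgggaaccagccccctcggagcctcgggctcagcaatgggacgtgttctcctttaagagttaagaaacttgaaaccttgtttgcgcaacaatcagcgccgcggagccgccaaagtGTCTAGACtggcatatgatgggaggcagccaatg
The match lay at position -4 from the start. This 8-base element was in 63 of 32851 promoter windows, or 0.192%, and Smad6 was the 1 gene of the 36 to hold it. The window held neither the SMAD box nor the GC-rich element. As above, the match describes letters and is no evidence of binding or of a response to BMP.

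Of 7 secreted antagonists, Grem1 and Fstl3 had an unadjusted p under 0.05. Grem1 encodes gremlin, which binds BMP2, BMP4 and BMP7, and had log2 values of 11.82, 13.12, 11.48 and 13.30 in WT and 13.59, 13.07 and 13.46 in MCT4KO. WT 2 and WT 4 were level with the knockout animals, and WT 1 and WT 3 lay more than 1 unit lower. The change was 0.94 ± 0.417 (95% interval 0.01 to 1.88; unadjusted p = 0.048, adjusted p = 0.39), and it ranged from 0.63 without WT 3 to 1.23 without WT 4.

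Fstl3, a follistatin-like inhibitor of activin and myostatin, had 11.29, 11.34, 12.05 and 12.04 in WT and 12.37, 11.92 and 12.40 in MCT4KO. WT 1 and WT 2 lay below the other 5 animals, and MCT4KO 2 was below WT 3 and WT 4. The change of 0.55 ± 0.233 (95% interval 0.03 to 1.07; unadjusted p = 0.041, adjusted p = 0.37) became 0.18 without WT 1 and WT 2 (adjusted p = 0.79). Neutrophil and marrow markers were highest in the same WT animals, at 7.28 and 9.17, and their part in the result was not tested. Fstl1, a secreted glycoprotein of the follistatin family, read 9.49 to 9.68 in WT but 8.91, 10.45 and 10.19 in MCT4KO. Its SD was 0.0809 in WT and 0.820 in MCT4KO, with knockout animals on both sides of the WT group. Chrd, the BMP antagonist chordin, read 10.43 to 10.72 in WT and 10.47 to 10.99 in MCT4KO. Nog, Chrdl1 and Fst were at background.

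Among the 5 ubiquitin ligases and nuclear co-repressors, Skil had the smallest p. It encodes SnoN, a co-repressor of SMADs that is itself induced by TGF-beta. It had 10.85, 11.50, 11.12 and 11.68 in WT and 11.03, 10.69 and 10.81 in MCT4KO, with WT 1 among the knockout values. The change was -0.44 ± 0.205 (unadjusted p = 0.057, adjusted p = 0.42). Its paralogue Ski had 0.04 ± 0.194, and the nuclear co-repressor Tgif1 -0.20 ± 0.224. The ubiquitin ligases Smurf1 and Smurf2, which mark receptors and SMADs for degradation, had -0.01 ± 0.184 and -0.05 ± 0.133. In Smurf1, WT 1 and WT 2 (10.03 and 10.14) lay below WT 3 and WT 4 (10.65 and 10.66), with the knockout animals between them at 10.31 to 10.38.

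Tgfbi, encoding a TGF-beta-induced adhesion protein of the matrix, had 9.70, 10.45, 10.26 and 10.58 in WT and 11.22, 10.26 and 9.66 in MCT4KO. The MCT4KO values spanned a wider range than WT, with MCT4KO 1 highest and MCT4KO 3 lowest of all animals. The change of 0.13 ± 0.339 (adjusted p = 0.90) turned to -0.29 without MCT4KO 1 and to 0.49 without MCT4KO 3. MCT4KO 1 was the highest of the 7 animals for 16 of the 51 genes, among them Inhba, Gdf5, Ltbp3, Ltbp4 and Grem1, and the lowest for 5. WT 1 was the lowest for 14 and MCT4KO 3 for 13. No such count over all genes is given here, so these counts cannot be read as particular to the 51 genes. The lowest correlation of any 2 arrays, 0.983, was that of MCT4KO 1 with WT 1. MCT4KO 1 also had the highest mean of 10 end plate and hyaline cartilage markers, 8.28 beside 7.38 and 6.95 in MCT4KO 2 and 3 and 7.43 to 7.83 in WT. The part of these markers in the Inhba and Tgfbi values was not tested. The list was not of 1 kind in that animal, since Col10a1 (12.11), Cytl1 (15.84) and Cnmd (9.45) were the highest of the 7 animals, whereas Snorc (9.96) was the lowest and Ucma (10.36) was below every WT animal.

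Of 100 other genes of the pathway listed by role, 93 were measured and none passed the test, with 8 at an unadjusted p under 0.05 (2 higher, 6 lower), 8.60% beside 12.7% of all genes. By list, 0 of 18 other ligands, 0 of 6 receptors, 0 of 12 antagonists, 0 of 15 latency and storage genes, 0 of 17 intracellular regulators, 0 of 14 TGF-beta-responsive and 0 of 11 BMP-responsive genes had an adjusted p under 0.05. Of the ligands 16 were at background in both groups, including Bmp8b and Bmp15, which had the smallest p-values of that list. Dand5, a DAN-family antagonist, read 8.82 to 9.27 in WT and 8.22 to 8.90 in MCT4KO (adjusted p = 0.43), while Fstl4 was at background. Rgmb and Hjv, BMP co-receptors, had changes of -0.12 ± 0.151 and -0.21 ± 0.239. The Hjv change was -0.47 without MCT4KO 2, -0.021 without MCT4KO 3 and -0.061 without WT 4 or with the animal number as a block. Nedd4l, a ubiquitin ligase for SMAD2 and SMAD3, read 8.84 to 9.23 in WT and 8.88, 8.13 and 8.16 in MCT4KO (change -0.66 ± 0.208, adjusted p = 0.24), with MCT4KO 1 in the WT range. The ubiquitin ligase gene Wwp2 read 12.04 to 12.28 in WT and 11.86 to 12.03 in MCT4KO, groups that did not overlap (change -0.23 ± 0.129, adjusted p = 0.48). Bgn, encoding biglycan, a proteoglycan that binds TGF-beta, had 12.47, 13.48, 12.71 and 13.48 in WT and 14.72, 13.74 and 13.19 in MCT4KO (change 0.85 ± 0.368, adjusted p = 0.38), and the change was 0.43 without MCT4KO 1. Emilin1 was at background.

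Genes that respond to TGF-beta showed a wide spread among WT animals. Of 14 measured, 8 had estimates above 0 and 6 below, with a median change of 0.31. The groups overlapped in all 14. At an unadjusted p under 0.05 by limma there were 1 higher and 1 lower, 14.3% of the list beside 12.7% of all genes. Ccn2, a matricellular protein and classic TGF-beta target that was picked after its values were seen, had 11.09, 11.58, 14.87 and 15.42 in WT and 13.54, 13.24 and 12.75 in MCT4KO. The knockout animals thus lay between a low and a high pair of WT animals, split like Tgfb2 and Fstl3 into WT 1 and WT 2 against WT 3 and WT 4. Acta2, smooth muscle actin, had 16.70, 15.06, 16.93 and 16.65 in WT and 15.09, 15.77 and 15.39 in MCT4KO. Tagln, the actin-binding protein transgelin, likewise picked after its values were seen, had 14.09, 11.95, 13.97 and 13.97 in WT and 12.51, 12.86 and 12.54 in MCT4KO. In both genes WT 2 lay below all 6 others, and the 3 other WT animals were above every knockout animal.

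With all 7 animals the changes were -0.92 ± 0.401 for Acta2 (adjusted p = 0.38) and -0.86 ± 0.460 for Tagln (adjusted p = 0.47). Without WT 2 they were -1.34 ± 0.196 (adjusted p = 0.048) and -1.38 ± 0.153 (adjusted p = 0.027), and these were then the 2 of 93 pathway genes called, beside 0.205% of all genes in the same fit. Without WT 1 and WT 2 together neither was called (adjusted p = 0.098 for Acta2 and 0.057 for Tagln). WT 2 was the lowest animal for both genes, so the fit without it depends on the pattern already seen. WT 2 also had the highest neutrophil and marrow markers, whose part was not tested. The mean of 12 smooth muscle and pericyte markers, a list added after the data were seen, was 6.39 to 6.72 in WT and 6.41 to 6.72 in MCT4KO, with 5 of the 12 at background in both groups. This mean hides members that moved both ways, such as Cspg4 (change 0.51, adjusted p = 0.26) and Pdgfrb (-0.41, adjusted p = 0.38). Cnn1 ran from 5.20 to 7.90 in WT, and the part of these markers in Acta2 and Tagln was not tested. Snai1, encoding a transcription factor induced by TGF-beta, had 7.38, 6.77, 6.75 and 6.41 in WT and 7.03, 7.60 and 7.44 in MCT4KO (change 0.53 ± 0.231, adjusted p = 0.38). Fn1, fibronectin, read 17.88 to 18.20 in WT and 18.17 to 18.47 in MCT4KO.

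Genes that respond to BMP had estimates on both sides of 0. Of 11 measured, 5 had estimates above 0 and 6 below. Groups did not overlap in 3 of the 11, 1 higher and 2 lower in MCT4KO. That is 27.3% of this short list, beside 8.6% of the 93 pathway genes and 12.0% of all genes. Dlx5, a homeobox factor of bone and cartilage, had 9.77, 7.85, 7.44 and 7.85 in WT and 7.09, 7.0 and 7.07 in MCT4KO. All knockout animals lay below all WT animals, and WT 1 lay far above the rest (change -1.18 ± 0.460, unadjusted p = 0.029, adjusted p = 0.33; -0.66 without WT 1). Atoh8, a helix-loop-helix factor, read 6.31 to 6.59 in WT and 6.08 to 6.22 in MCT4KO, again without overlap (change -0.28 ± 0.129, adjusted p = 0.42). The ID genes, inhibitors of DNA binding that are textbook BMP targets, differed in sign. Id1 had 11.84, 13.31, 13.32 and 14.29 in WT and 13.52, 13.92 and 14.15 in MCT4KO (change 0.67 ± 0.460, adjusted p = 0.57), Id2 had a change of 0.003 ± 0.354, Id3 of -0.71 ± 0.403 and Id4 of 0.23 ± 0.125. For Id4 every MCT4KO animal, at 17.13 to 17.18, was above every WT animal, at 16.84 to 17.10. The lowest adjusted p of the 4 was 0.48.

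**Figure D4:**
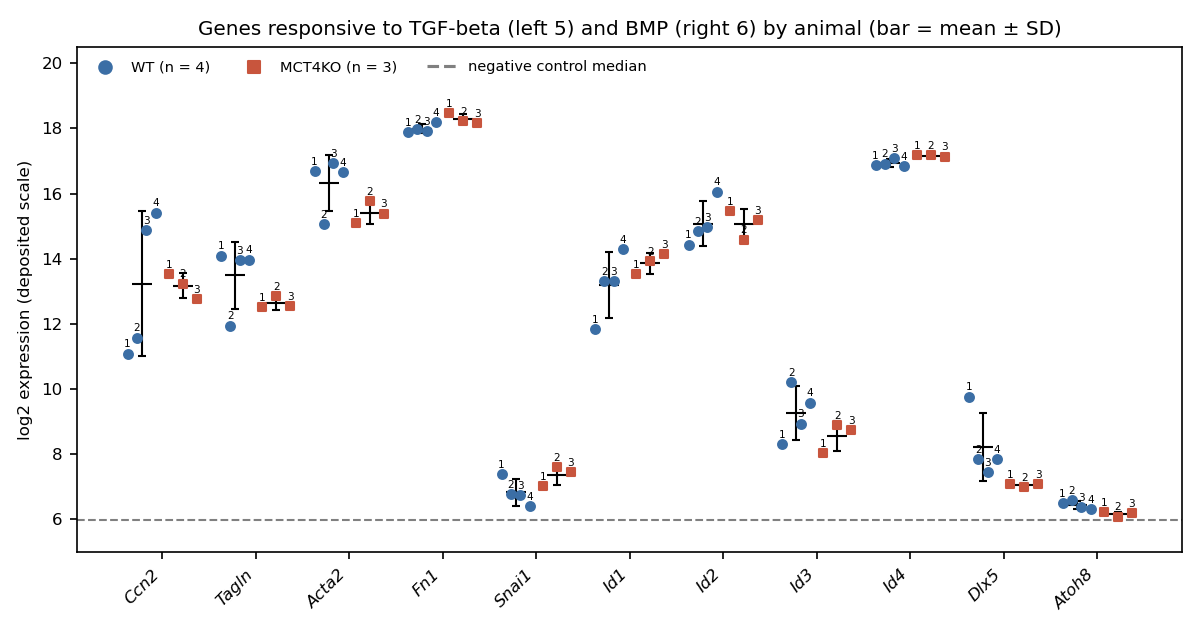
Log2 expression on the authors' scale is plotted for 5 TGF-beta-responsive and 6 BMP-responsive genes in 4 WT animals (circles) and 3 MCT4KO animals (squares), numbered by animal, with group mean ± SD and the negative control median as a dashed line. WT animals split widely in Ccn2, from 11.09 to 15.42, and WT 2 sits below the 3 other WT animals in Tagln and Acta2.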

How the data were processed

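The submitters' processing notes name Affymetrix Expression Console 1.4.1 as the software with which the authors made the deposited log2 expression values. The log2 scale was read from their range (2.44 to 19.41), and no source used here states the background correction or normalization. Per the labels' protocols, 100 ng of total RNA was labelled with the GeneChip WT Plus kit. The 51 genes and all lists were chosen with earlier results of these data known, and the smooth muscle list was added last. Of 22206 transcript clusters, 19572 had 1 gene symbol, giving 19505 genes, each taken at its feature with the highest mean. A gene was at background in a group where no array exceeded its own negative control median (5.91 to 6.08). MCT4KO and WT were compared with limma 3.58.1 in R 4.3.3 (lmFit, eBayes), with Benjamini-Hochberg adjustment over all 19505 genes and a threshold of 0.05; the code was checked on simulated data. Each animal is a replicate, 4 WT and 3 MCT4KO, and the number of arrays limits the precision. Arrays correlated at r = 0.983 to 0.995 and none were identical. Values in every array are given for members with an unadjusted p under 0.05 or groups that did not overlap and for the member with the smallest p in each role; of the other pathway genes, the 2 with the smallest p in each list are named. Other members are given by range and change, except some given in full after their values were seen. Same-numbered animals did not deviate together (r = -0.13, 0.02 and 0.05). Alternatives were quantile normalization, centring, a filter on dim genes, the mean of features, an intensity trend, a floor, the replicate block and leaving out animals. Promoters are from RefSeq, GRCm38.p6.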

Additional observations from a re-analysis of the deposited data

Results flagged for a closer look

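Of 67 genes whose 4 WT values were searched for an animal far from the other 3 (Dixon's ratio above 0.829, for which chance flags about 1 group in 20), 4 had such an animal. In Acvr2a, WT 1 had 14.83 against 14.25 to 14.28 in the others (ratio 0.934). In Acta2, WT 2 had 15.06 against 16.65 to 16.93 (ratio 0.853), and in Tagln, WT 2 had 11.95 against 13.97 to 14.09 (ratio 0.942). Tagln entered the search only after its values were seen, because it was called without WT 2. Its flag is therefore no independent result. In Bmp15, which was at background, WT 3 had 4.83 against 5.24 to 5.30 (ratio 0.866).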

How the results depend on the processing

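None of the genes fitted was called under any of the 15 alternatives run with limma, each with all 51 genes except the filter on dim genes, which left 38, and the number with an unadjusted p under 0.05 ran from 3 (floor, and without MCT4KO 3) to 10 (quantile normalization). Slc16a3 was called under all 15, and the median change over the 51 genes ran from -0.01 to 0.11. Over all genes, 115 calls (23 higher, 92 lower) became 79 after quantile normalization (26 higher, 53 lower), 26 with the floor, 6 with the replicate block, 16 without WT 1 and WT 2, and 15 (without MCT4KO 3) to 64 (without MCT4KO 2) when 1 animal was left out. Other pathway genes called ran from 0 to 2 when 1 animal was left out, the 2 being Acta2 and Tagln without WT 2. The animal numbers are a number only, and the fit with the replicate block called none of the 51 genes, with 9 at an unadjusted p under 0.05. Sign changes follow for genes above background in either group; none was of a called gene, and the cause was not tested. The log2 change turned sign after quantile normalization for Tgfb1 (0.015), Ltbp3 (0.018), Smad3 (0.0035), Smad4 (0.032), Smurf1 (0.089) and Smurf2 (0.047). With the replicate block it turned for Acvr1b (-0.014), Smurf1 (0.086) and Smurf2 (0.0037). Without WT 1 and WT 2 it turned for Tgfb2 (-0.0023), Smad5 (-0.17), Ski (-0.083) and Tgfbi (-0.039). Leaving out 1 animal gave ranges that crossed 0 for Tgfb1 (-0.37 to 0.13), Bmp5 (-0.45 to 0.022), Bmp7 (-0.33 to 0.22), Gdf5 (-0.18 to 0.69), Inhba (-0.0027 to 1.08), Ltbp3 (-0.34 to 0.17), Tgfbr1 (-0.24 to 0.0020), Acvr1b (-0.041 to 0.14), Eng (-0.27 to 0.017), Bambi (-0.27 to 0.0081), Smad4 (-0.069 to 0.023), Smad5 (-0.0023 to 0.28), Smad9 (-0.17 to 0.075), Chrd (-0.077 to 0.18), Fstl1 (-0.0495 to 0.72), Smurf1 (-0.13 to 0.086), Smurf2 (-0.10 to 0.0037), Ski (-0.098 to 0.20), Tgfbi (-0.29 to 0.49) and Rgmb (-0.20 to 0.028). Of the 14 genes plotted by animal in the set of 51, Inhba and Tgfbi did so. With 7 arrays, a gene near the control median has only an upper limit, and 10 of the 51 genes had intervals reaching beyond a 2-fold change.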
